A study of Mus musculus with 304 samples.

Results

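The genes described here are the molecular chaperones of the mouse and the main transcription factors that control them, measured in single dentate granule cells. Members were taken by symbol: every row of the count table starting with Hsp90, Hspa, Hspb, Hspd, Hspe, Hsph, Dnaja, Dnajb, Dnajc or Pdia, together with Calr, Canx, Xbp1, Atf4, Atf6, Ddit3 and Hsf1. This gave 86 of 22800 genes, of which 84 had at least 1 read in the cells used. Granule cells are the principal neurons of the dentate gyrus, and Patch-seq draws the cytosol of a recorded cell into the pipette for RNA sequencing. Of the 5 groups used, 29 cells came from mice 14 days after a microinjection of kainic acid (70 nl of 5 mM) into the hippocampus, side not labelled. A further 58 cells came from the injected side 1 day after the same injection, and 31 cells from mice with no injection. In a second experiment an adeno-associated virus (AAV) delivered Id2, a helix-loop-helix transcriptional regulator, or GFP, and 71 Id2 and 59 GFP cells were sampled 1 month later. The promoter of either virus, the strain and the age of the mice are not given in the labels. No label names an animal, so each group counts as 1 sample, cells are not replicates, and no p-value was computed.

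Chaperones bind unfolded proteins and help them reach or regain their shape. In the cytosol, Hsp70 proteins work with J-proteins (Dnaj), which bring them substrates, with Hsp110 proteins, which exchange their nucleotide, and with Hsp90. The heat shock response raises these genes through the factor Hsf1, which binds heat shock elements. In the endoplasmic reticulum (ER), the Hsp70 protein BiP (Hspa5), the Hsp90 protein Grp94 (Hsp90b1), the lectins calreticulin and calnexin, and the protein disulfide isomerases (Pdia) fold secreted and membrane proteins. The unfolded protein response raises them through Atf6, the spliced form of Xbp1 and Atf4, with Ddit3 (CHOP) as a later factor linked to cell death. Neurons also use specialised J-proteins on vesicles, such as Dnajc5 at the synapse and Dnajc6 on clathrin coats.

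Total counts per cell had medians of 7615492 in day 14, 6834546 in day 1, 1738610 in uninjected, 3317227 in Id2 and 3957794 in GFP cells, so uninjected cells were the shallowest. Thinned to 100000 reads, the median cell had 3931 genes at day 14, 4309.5 at day 1, 3617 in uninjected, 2718 in Id2 and 3121 in GFP cells. Summed over cells, Id2 stood at 37369 CPM, counts scaled to a total of 1000000 per group, in Id2 cells and at 93.2 CPM in GFP cells, as labelled. A list of 15 granule cell markers summed to 1811 CPM at day 14, 1895 at day 1, 3980.1 in uninjected, 2979 in Id2 and 4396 in GFP cells, and all had reads in every group except Lct, at 0 in uninjected cells. A list of 15 microglia markers summed to 7007 CPM at day 14, 831 at day 1 (P2ry12 at 0), 3866 in uninjected, 625 in Id2 and 181.9 in GFP cells. These microglial values move with the groups, and they stand beside the results they touch below. Kainate, uninjected and virus cells carry different series of titles, so any batch that follows the titles cannot be told apart from the groups.

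The stress factors read short promoter motifs, and these sequences show which members carry them. RefSeq promoter windows (build GRCm38.p6, 250 bases before and 50 from the annotated start on) were available for 70 members, in 87 windows. The ER stress element, CCAAT and CCACG with 9 bases between them, was searched on both strands. It was found in 6 of the 14 windows of ER chaperones and foldases, against 39 of all 32851 windows of the table (0.119%). The matches are shown in the direction of the element with 5 bases on either side and the boxes of the element in capitals.
Hspa5: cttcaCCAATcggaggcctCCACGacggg (chr2:34772020-34772048, plus strand)
Hsp90b1 first site: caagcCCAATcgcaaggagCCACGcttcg (chr10:86705633-86705661, minus strand)
Hsp90b1 second site: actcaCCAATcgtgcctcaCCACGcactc (chr10:86705528-86705556, plus strand)
Calr: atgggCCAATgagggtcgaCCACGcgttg (chr8:84847070-84847098, plus strand)
Canx: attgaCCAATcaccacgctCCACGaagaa (chr11:50325795-50325823, minus strand)
Pdia6: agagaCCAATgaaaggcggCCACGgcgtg (chr12:17266486-17266514, plus strand)
Dnajc3: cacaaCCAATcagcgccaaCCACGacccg (chr14:118937822-118937850, plus strand)

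All of these matches lay upstream of the start, from 47 to 212 bases away. In Hspa5, the gene of BiP, the 250 bases before the start (chr2:34771840-34772089, plus strand) are printed whole, with the complete element in capitals.
Hspa5 upstream: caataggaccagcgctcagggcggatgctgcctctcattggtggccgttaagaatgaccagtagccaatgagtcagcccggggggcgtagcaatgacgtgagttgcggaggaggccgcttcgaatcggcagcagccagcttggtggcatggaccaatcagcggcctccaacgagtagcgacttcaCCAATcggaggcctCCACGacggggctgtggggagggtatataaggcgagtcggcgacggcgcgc
Hsp90b1 upstream: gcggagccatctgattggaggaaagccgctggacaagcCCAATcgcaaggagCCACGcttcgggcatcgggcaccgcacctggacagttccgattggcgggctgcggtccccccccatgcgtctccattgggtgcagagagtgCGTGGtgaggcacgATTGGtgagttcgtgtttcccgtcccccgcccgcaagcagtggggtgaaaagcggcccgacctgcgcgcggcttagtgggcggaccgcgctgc
The Hsp90b1 stretch (chr10:86705445-86705694, minus strand) holds its 2 elements in opposite directions, so the second appears there as its reverse complement. No ER stress element in this form was found in the windows of Pdia3 and Pdia4, which says only that these letters are not in these windows.

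The heat shock element searched was 3 alternating triplets, GAA and TTC, each 2 bases apart, starting with either, so that a match on a strand is also a match on the other. It was found in 6 of the 87 member windows, against 0.603% of all windows. These 6 windows stand for 3 places in the genome, because Dnajb6 and Hsph1 each have 2 overlapping windows and Hspd1 and Hspe1 share 1 place between them. The triplets are in capitals.
Hspe1: gtccgTTCtaGAAccTTCcggaa (chr1:55088054-55088076, plus strand)
Dnajb6: tccgaGAAtcTTCcgGAAcgcta (chr5:29735847-29735869, plus strand)
Hsph1: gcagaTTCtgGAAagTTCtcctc (chr5:149636283-149636305, minus strand)
Hspd1 (Hsp60) and Hspe1 (Hsp10), the 2 parts of the mitochondrial chaperonin, are transcribed in opposite directions from a single short stretch of chromosome 1, and 2 overlapping elements lie there. The 250 bases before the start of Hspe1 (chr1:55087898-55088147, plus strand) show both.
Hspe1 upstream: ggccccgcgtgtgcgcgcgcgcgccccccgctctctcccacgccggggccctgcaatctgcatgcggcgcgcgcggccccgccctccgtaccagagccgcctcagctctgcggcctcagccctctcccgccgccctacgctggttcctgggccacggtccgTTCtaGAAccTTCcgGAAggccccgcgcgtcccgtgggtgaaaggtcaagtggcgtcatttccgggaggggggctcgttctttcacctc
In Hsph1 the element lay 15 to 27 bases past the start in a first window and 36 to 48 in the other. The UPR element TGACGTGG was found in 1 member, Dnajc25 (0.676% of all windows), and the ATF4-type motif, TGATG and AA with any base between, in 1 member, Hspa14 (3.97% of all windows).

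**Figure D1:**
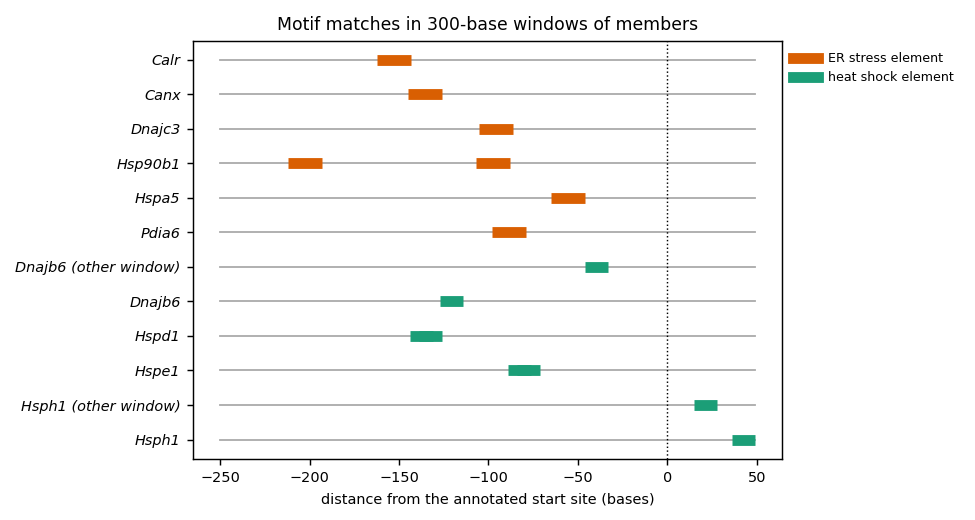
Positions of the ER stress element (orange) and the heat shock element (green) in 300-base RefSeq windows of members; the x axis is the distance from the annotated start site in bases and each line is 1 window. The 6 genes with an ER stress element all have it upstream, and Hsph1 has its heat shock element just past the start.

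A level, unless given per cell, is the CPM of the pooled counts of all cells in a group. Per kilobase of exon, the order was led in all 5 groups by Hsp90ab1, the constitutive cytosolic Hsp90, then Hspa8, the constitutive Hsp70 (Hsc70), then Hspa5. Hsp90ab1 stood at 468 CPM per kilobase at day 14, 744 at day 1, 528 in uninjected, 676 in Id2 and 655 in GFP cells. The stress-inducible Hsp70 genes lay far below: Hspa1a stood at 1.13, 5.14 and 1.81 CPM per kilobase at day 14, at day 1 and in uninjected cells. Summed over all members, the level was 12828 CPM at day 14, 17193 at day 1, 12346 in uninjected, 13208 in Id2 and 15058 in GFP cells.

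The cytosolic Hsp70, Hsp110 and Hsp90 genes stood apart by their quartiles between day 1 and uninjected cells. Their summed level per cell had a median of 4639 CPM at day 14, 7021 at day 1 and 4286 in uninjected cells, and of 5417 and 5445 CPM in Id2 and GFP cells. The lower quartile of day 1 cells, 5746 CPM, lay above the upper quartile of uninjected cells, 5292 CPM, while the full ranges overlapped. The quartiles of day 14 cells, 3129 and 6494 CPM, enclosed those of uninjected cells. For ER chaperones and foldases the medians were 2722 at day 14, 3325 at day 1 and 3442 CPM in uninjected cells. Mitochondrial chaperones had medians of 784, 1070.5 and 642 CPM at day 14, at day 1 and in uninjected cells. The sum over all members also stood apart by its quartiles, so this was not particular to the cytosolic list. Its lower quartile was 14712 CPM at day 1 and its upper quartile 13772 CPM in uninjected cells.

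**Figure D2:**
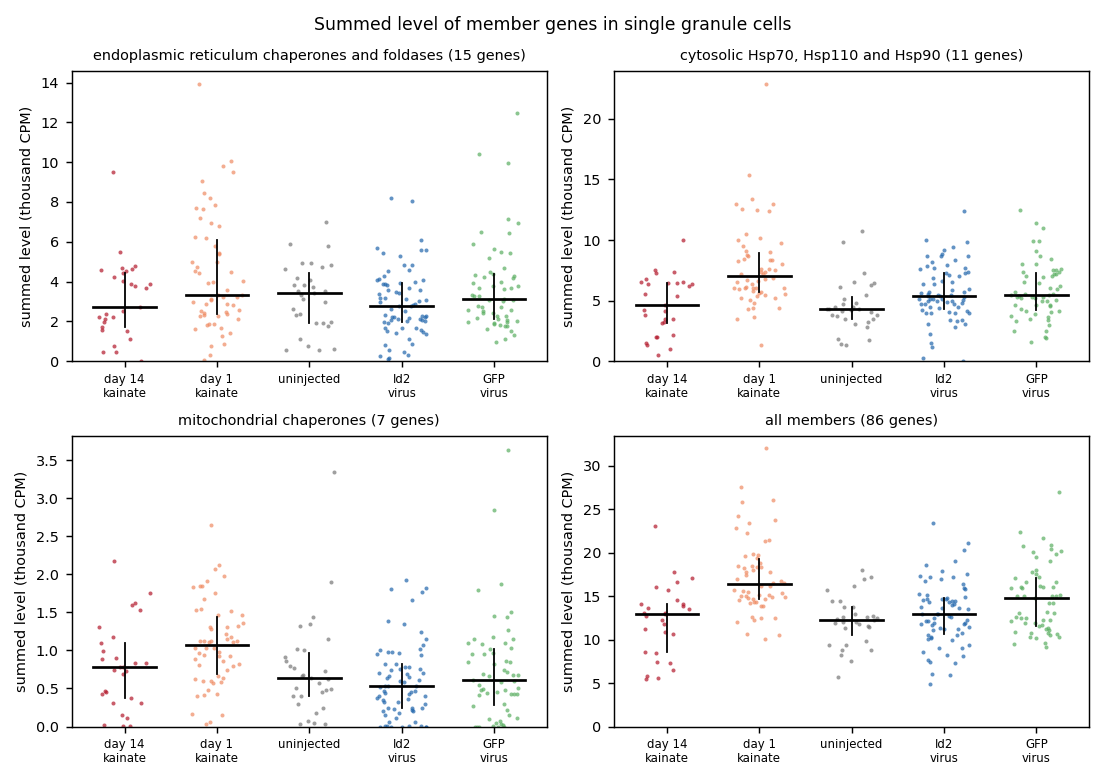
Summed level of 3 role lists and of all members in each cell (y axis, in units of 1000 CPM) for the 5 groups; points are cells, the bar is the median and the vertical line the quartiles. Day 1 cells sit highest for cytosolic Hsp70, Hsp110 and Hsp90 genes, with a median of 7021 CPM against 4286 CPM in uninjected cells, whereas the ER medians of these 2 groups are 3325 and 3442 CPM.

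A gene counted as measured if reads were present in 20% or more of the cells on either side of a comparison and its summed level came to 5 CPM or more on either side. It was called where the ratio was at least 2-fold on each of 3 scales: the summed counts, the mean of the cells' CPM, and that mean without the highest cell of the gene in each group, all after adding 1 CPM. A call is a statement of size, not of significance. Exact 95% Poisson intervals and exact binomial intervals cover counting error only.

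At day 1, Hsph1, the gene of Hsp110, was the member with the highest level among those called higher in kainate cells. It stood at 1439.7 CPM at day 1 (exact Poisson interval 1436 to 1443) and at 498 CPM (493 to 503) in uninjected cells, 2.89-fold higher. The lowest, median and highest cells had 0, 1176 and 9708 CPM at day 1, against 0, 169.6 and 2672 CPM in uninjected cells. Reads were found in 57 of 58 day 1 cells and in 21 of 31 uninjected cells, and the lower quartile of day 1 cells (684 CPM) lay above the upper quartile of uninjected cells (439 CPM), although the ranges overlapped. Uninjected cells were not uniform: those with J titles stood at 282 CPM and the 9 with other titles at 964 CPM, and against those 9 cells alone the log2 ratio of day 1 cells was 0.58. With GFP cells as the reference it was 1.71.

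Among measured members at day 1, 8 of 61 were called higher than in uninjected cells, against 17.3% of all measured genes, and 2 were called lower, against 9.35%. Of the 86 members 61 were measured, 7 of them only through the day 1 cells, which holds for the called Pdia4, Dnajc9 and Hspb11. The median log2 ratio was 0.30 over measured members and 0.17 over all measured genes. Besides Hsph1, the members called higher were Pdia3, Pdia4, Hspd1, Dnajc7, Dnajc9, Dnajc15 and Hspb11. Those called lower were Dnajb1 and Dnajc6.

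Of the ER list, 2 of 13 measured members were called higher at day 1 and none of the 13 lower, against 17.3% and 9.35% of all measured genes. Pdia3 (ERp57), the disulfide isomerase that works with calreticulin and calnexin, stood at 363 CPM at day 1 and 117.2 CPM in uninjected cells, 3.097-fold higher. Its lowest, median and highest cells had 0, 275 and 1732 CPM at day 1, against 0, 0 and 677 CPM in uninjected cells. Thus 46 of 58 day 1 cells held a Pdia3 read and 13 of 31 uninjected cells did, and after thinning every cell to 100000 reads the shares were 74.1% and 37.9%. Pdia4 (ERp72), a second isomerase, stood at 61.5 and 17.4 CPM, with reads in 20 of 58 and 5 of 31 cells. With GFP cells as the reference, the log2 ratio of day 1 cells was 0.47 for Pdia3 and -1.07 for Pdia4, so that neither was past 2-fold upwards and the direction of Pdia4 turned. Leaving out cells whose microglia markers summed to 1000 CPM or more gave 0.97 and 0.20.

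The other ER chaperones were not called at day 1. Hspa5 stood at 1558 CPM at day 1 and 856 CPM in uninjected cells, a log2 ratio of 0.86. Its lowest, median and highest cells had 0, 1150.02 and 6216 CPM at day 1, against 0, 774 and 2684 CPM in uninjected cells. The highest day 1 cells therefore reached above every uninjected cell, while the medians were closer. Hsp90b1 stood at 624 and 532 CPM, Pdia6 at 497 and 432 CPM, and Canx at 307 and 267 CPM. Calr was below its uninjected level, at 231.8 CPM at day 1 and 356 CPM in uninjected cells. All 5 of these genes carry the ER stress element shown above.

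None of the 5 stress transcription factors was called at day 1. Xbp1 stood at 425 CPM at day 1 and 361 CPM in uninjected cells. Atf4 stood at 280.1 and 226.7 CPM, and Hsf1 at 94.2 and 110.4 CPM. These factors are controlled largely by splicing, translation, cleavage or binding, which gene counts do not show. Hsf1 differed among uninjected cells, at 34.9 CPM in those with J titles and 273.8 CPM in the 9 with other titles. The day 1 level of Hsf1 lay between these values, so its direction depends on the uninjected cells taken. Ddit3 stood at 101.4 CPM at day 1 and 66.8 CPM in uninjected cells, with medians over cells of 64.6 and 0 CPM. After thinning, 65.5% of day 1 cells and 41.4% of uninjected cells held a Ddit3 read.

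Of the 8 measured cytosolic Hsp70, Hsp110 and Hsp90 genes, 1 (12.5%), Hsph1, was called higher at day 1, against 17.3% of all measured genes. None of the 8 was called lower, against 9.35%. A log2 ratio above 0 was found for 5 and below 0 for 3, against 5129 of 9079 genes above 0. In the cytosolic list, Hspa8 was 1 of 2 members over 2-fold higher on the summed counts that were not called. It stood at 2328 CPM at day 1 and 1032 CPM in uninjected cells, 2.26-fold higher on the summed counts but below 2-fold on the other two scales. Its lowest, median and highest cells had 0, 1973 and 8275 CPM at day 1, against 355, 966 and 3181 CPM in uninjected cells. The median day 1 cell lay above the upper quartile of uninjected cells, 1455 CPM. The other was Hspa2, an Hsp70 gene best known from testis, at 143.4 and 50.1 CPM. Hsp90ab1 stood at 2232 and 1584 CPM, and Hsp90aa1, the inducible Hsp90, at 997 and 767 CPM. Hspa1a and Hspa1b, the heat-inducible Hsp70 genes, were not measured in this comparison, with reads in 5 of 58 and 6 of 58 day 1 cells. These 2 genes are near-identical copies, so reads could be split between them and their single values are uncertain.

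Mitochondrial and cytosolic partners also appeared among the calls at day 1. Hspd1 (Hsp60) stood at 179.8 CPM at day 1 and 57.4 CPM in uninjected cells, 3.13-fold higher, and its cells had 0, 125.7 and 1573 CPM at day 1, against 0, 6.24 and 581 CPM in uninjected cells (lowest, median and highest). Hspe1, its cochaperonin with the shared promoter stretch above, was not called, at 74.1 and 60.8 CPM. The annotation overlaps an exon of each of these 2 genes with the other on the opposite strand, and no source used here says whether counting used the strand. Dnajc15, a J-protein of the mitochondrial import motor, stood at 64.1 and 25.1 CPM. With GFP cells as the reference, the log2 ratio was 0.62 for Hspd1 and 0.71 for Dnajc15, both short of 2-fold.

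Dnajc7, a J-protein that binds both Hsp70 and Hsp90, had the highest fold of the members called at day 1. It stood at 256.03 CPM at day 1 and 39.6 CPM in uninjected cells, 6.47-fold higher. Its lowest, median and highest cells had 0, 174.1 and 1467 CPM at day 1, against 0, 0 and 473 CPM in uninjected cells, with reads in 46 of 58 and 11 of 31 cells. Dnajc7 was also high in GFP cells (208.9 CPM), and against those the day 1 log2 ratio was 0.29. Its exons overlap Cnp and Nkiras2 on the other strand, at 15.2 and 25.9 CPM at day 1 and 9.65 and 3.11 CPM in uninjected cells. Dnajc9, a histone chaperone, stood at 66.05 and 17.6 CPM, and Hspb11, a ciliary transport subunit named with the small heat shock proteins, at 23.8 and 6.16 CPM. With GFP cells as the reference their log2 ratios were 0.61 and -1.15.

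Of the 3 vesicle J-proteins, 1 was called lower at day 1, against 9.35% of all measured genes, and 2 lay below 0. Dnajc13 lay above 0 and was not called, at 3.58 CPM per kilobase at day 1 and 0.661 in uninjected cells. Dnajc6 (auxilin), which with Hsc70 strips clathrin from vesicles, stood at 17.8 CPM at day 1 and 70.5 CPM in uninjected cells, 3.96-fold lower. Its lowest, median and highest cells had 0, 0 and 148.7 CPM at day 1, against 0, 0 and 727 CPM in uninjected cells. Most cells of both groups were thus at 0 and the difference lay in the upper part of the range. J-titled uninjected cells stood at 92.4 CPM and the 9 with other titles at 23.2 CPM, and against those 9 cells the log2 ratio was -0.37, short of 2-fold. Dnajc5, the synaptic vesicle chaperone called cysteine string protein, was not called, at 176.7 and 301 CPM. Its J-titled uninjected cells stood at 397.6 CPM and the 9 with other titles at 92.1 CPM, which is below the day 1 level.

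**Figure D3:**
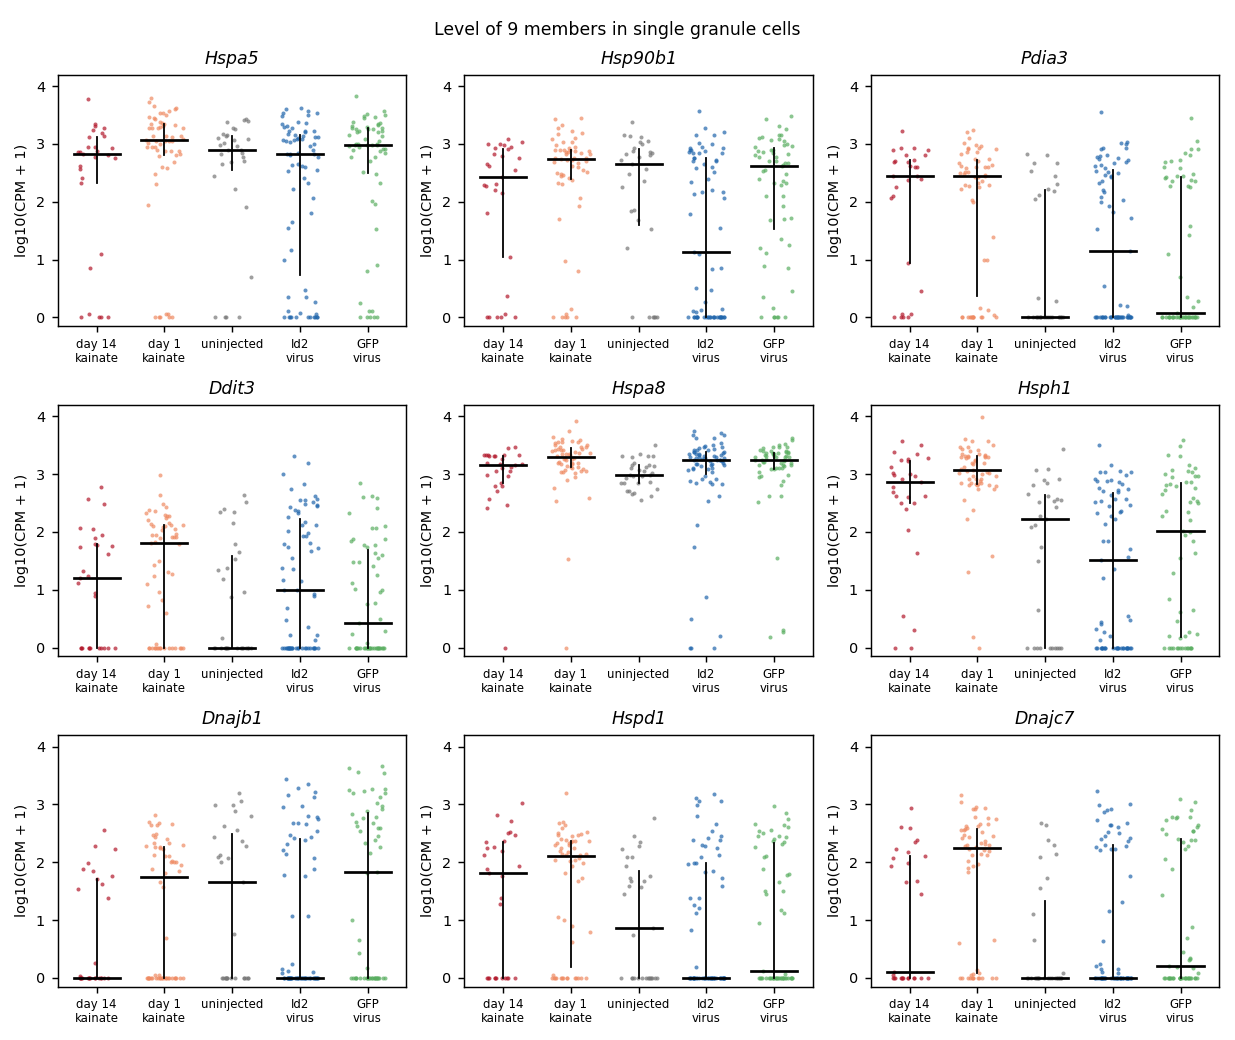
Level of 9 members in each cell (y axis, log10 of CPM + 1) for the 5 groups; points are cells, the bar is the median and the vertical line the quartiles. For Hsph1 the day 1 median is 1176 CPM against 169.6 CPM in uninjected cells, and for Dnajb1 the day 14 median is at 0 against 44.1 CPM in uninjected cells.

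At day 14, 11 of 66 measured members were called higher than in uninjected cells, against 17.8% of all measured genes, and 8 were called lower, against 9.91%. Of these 66 members, 12 were measured only through the day 14 cells, which holds for the called Hspb3, Pdia4, Dnajc9, Dnajc12, Dnajc14, Dnajc17 and Dnajc24. The median log2 ratio was 0.08 over members and 0.14 over all genes. Day 14 and day 1 share the uninjected cells as their reference, so their calls are not independent. Called higher at both times were Pdia3, Pdia4, Hspd1 and Dnajc9, called lower at both were Dnajb1 and Dnajc6, and no member was called in opposite directions. The shares of all measured genes with these patterns were not computed. Microglia markers were higher at day 14 than in uninjected cells (7007 against 3866 CPM), so ratios were also computed without the cells at or above 1000 CPM of those markers, which leaves 9 day 14 and 14 uninjected cells. Where that turned a ratio or brought it under 2-fold, the value is given below.

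Among the calls at day 14, Atf6 had the lowest log2 ratio and Hspb3 the highest. Atf6, the membrane-bound sensor that is cut on ER stress to give a transcription factor, stood at 16.8 CPM at day 14 and 146.8 CPM in uninjected cells, 8.72-fold lower. Its lowest, median and highest cells had 0, 0 and 278 CPM at day 14, against 0, 0 and 901 CPM in uninjected cells, with reads in 6 of 29 and 15 of 31 cells. Atf6 at day 1 lay between them, at 74.3 CPM. Its day 14 log2 ratio was -3.05, -2.71 without the cells rich in microglia markers and -1.82 with GFP cells as the reference.

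Hspb3, a small heat shock protein best known from muscle, had no read in the 31 uninjected cells or the 59 GFP cells. It stood at 26.1 CPM at day 14, with reads in 12 of 29 cells and a highest cell of 158.7 CPM. With no uninjected read, the size of the ratio depends on the value added. The day 14 log2 ratio was 4.76 after adding 1 CPM and 2.64 with a pseudocount of 5 CPM. At day 1 it stood at 16.4 CPM with reads in 10 of 58 cells, too few for the day 1 comparison, and in Id2 cells 2 of 71 cells held a read. For the 0 of 31 uninjected cells, counting error alone allows a share of up to 11.2% (exact binomial upper bound). That bound does not cover differences between animals or batches. After thinning, 31.03% of day 14 cells still held an Hspb3 read. Without the cells rich in microglia markers its log2 ratio was 4.44.

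Of the ER list, 2 of 13 members were called higher and 2 lower at day 14, against 17.8% and 9.91% of all measured genes. Pdia3 stood at 409.5 CPM at day 14 and 117.2 CPM in uninjected cells, 3.49-fold higher, with day 14 cells at 0, 284 and 1644 CPM (lowest, median and highest). Its log2 ratio was 0.66 without the cells rich in microglia markers and 0.65 with GFP cells as the reference, both short of 2-fold. Pdia4 stood at 71.99 and 17.4 CPM, and its log2 ratio turned to -1.60 without the microglia-rich cells and to -0.84 with GFP cells as the reference. Dnajc3 (P58IPK), a J-protein of the ER lumen that also carries the ER stress element, stood at 33.2 CPM at day 14 and 108.5 CPM in uninjected cells, 3.26-fold lower. Dnajc1, a J-protein of the ER membrane, stood at 32.98 and 93.3 CPM, and its log2 ratio was -0.01 against the 9 uninjected cells with other titles.

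The most abundant chaperones were not called at day 14. Hspa5 stood at 996 CPM at day 14 and 856 CPM in uninjected cells, and 32.1% of its day 14 reads came from 1 cell. Hspa8 stood at 1618 and 1032 CPM, Hsp90ab1 at 1404 and 1584 CPM, and Hsp90aa1 at 598 and 767 CPM. Hsph1 stood at 989 and 498 CPM, with a log2 ratio of 0.99 just under the limit on the summed counts. Calr, Canx, Pdia6, Hsp90b1, Xbp1, Atf4, Ddit3, Hsf1, Dnaja1 and Hspe1 were not called either. Hspd1 stood at 171.5 CPM at day 14, 2.99-fold higher than in uninjected cells, and its log2 ratio was 0.12 without the cells rich in microglia markers.

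The remaining calls at day 14 were on less abundant members. Higher were Dnajc13 (73.2 CPM at day 14 and 7.89 CPM in uninjected cells), which acts on endosomes, Dnajc17, a splicing-linked J-protein (46.98 and 9.62 CPM), and Hspbp1, an exchange factor of Hsp70 (192.7 and 78.4 CPM). Also higher were Dnajc14 (58.1 and 6.996 CPM), Dnajc24 (12.4 and 2.099 CPM), Dnajc12 (11.7 and 3.602 CPM) and Dnajc9 (53.3 and 17.6 CPM). Lower were Dnajb2, a neuronal J-protein that feeds clients to degradation (9.09 and 35.4 CPM), Hspa4l, of the Hsp110 family (28.2 and 75.7 CPM), Dnajb14 (23.7 and 52.8 CPM) and Dnajc6 (30.1 and 70.5 CPM). Without the cells rich in microglia markers, the log2 ratio of Dnajc13 turned to -3.22 and that of Dnajb2 to 0.04. Against the 9 uninjected cells with titles outside the J series alone, 4 of the lower calls turned: Dnajb2 to 2.18, Dnajb14 to 3.25, Hspa4l to 3.14 and Dnajc6 to 0.36. With GFP cells as the reference, Dnajc24 and Dnajc12 turned, and Dnajc17, Dnajc13, Dnajc9, Hspbp1, Dnajc3, Dnajc1, Dnajc6 and Hspa4l were short of 2-fold. Dnajb14, Dnajc12, Dnajc14, Dnajc24 and Hspbp1 were each short of 2-fold in at least 1 further alternative.

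Set directly against day 1, day 14 cells had 1 of 66 measured members called higher, against 12.5% of all measured genes, and 11 called lower, against 13.5%. Only through the day 14 cells were 5 of the 66 measured, among them the called Dnajc25. The median log2 ratio was -0.23 over members and -0.02 over all genes, and 44 of the 66 members lay below 0, against 5028 of 9823 genes. All 8 measured cytosolic Hsp70, Hsp110 and Hsp90 genes lay below 0, with none called, and so did the 5 stress transcription factors, of which Atf6 was called. This comparison shares no control cells, and the title numbers of the 2 times do not overlap, so a batch that follows the titles cannot be told apart from time.

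Of the 13 measured ER chaperones and foldases, 3 (23.1%) were called lower at day 14 than at day 1, against 13.5% of all measured genes. All 3 are J-proteins, and none of the 13 was called higher. Dnajb11 (ERdj3), a BiP partner, stood at 90.4 CPM at day 14 and 225.5 CPM at day 1, with cells at 0, 0.144 and 431 CPM at day 14 and 0, 52.5 and 1604 CPM at day 1 (lowest, median and highest). Dnajb9 (ERdj4), a known target of Xbp1, stood at 26.5 and 66.8 CPM, and Dnajc1 at 32.98 and 103.6 CPM. In all 3 the ranges overlapped and the highest cells were at day 1. Atf6 stood at 16.8 CPM at day 14 and 74.3 CPM at day 1, 4.41-fold lower. The cytosolic J-proteins Dnajc7 (109.9 and 256.03 CPM), Dnajb5 (74.4 and 197.3 CPM), Dnajb2 (9.09 and 37.8 CPM) and Dnajb1 (45.95 and 106.2 CPM) were also lower. They are 4 of the 14 measured cytosolic and nuclear J-proteins (28.6%, against 13.5% of all measured genes). Hspbap1, Dnajc27 and Hspb11 completed the lower calls, and Dnajc25 was the single member called higher (27.01 and 5.61 CPM). Microglia markers summed to 7007 CPM at day 14 and 831 CPM at day 1. Without the cells rich in them, the log2 ratio was -0.21 for Dnajc7, -0.58 for Dnajb9, -0.73 for Dnajb5, -0.64 for Dnajb2, -0.84 for Dnajc27 and -0.34 for Hspb11, all short of 2-fold, and that of Dnajc25 turned to -2.69. Dnajb11, Dnajc1, Atf6, Hspbap1 and Dnajb1 stayed past 2-fold without those cells. Hspb11 was also short of 2-fold with a pseudocount of 5 CPM and without the deepest 10% of cells.

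Dnajb1 (Hsp40), the main stress-inducible J-protein partner of Hsp70, was the only member called in all 5 comparisons. It lies at chr8:83608193-83612653 (GRCm38, plus strand). It stood at 45.95 CPM at day 14 (exact Poisson interval 45.1 to 46.8), 106.2 CPM at day 1 (105.3 to 107.2) and 259.2 CPM in uninjected cells (255.4 to 263). It stood at 230.4 CPM in Id2 cells (228.5 to 232.2) and 673 CPM in GFP cells (670.01 to 677). The order was therefore GFP, uninjected, Id2, day 1 and day 14, of which uninjected and Id2 cells differed least.

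Per cell, many cells of every group held no Dnajb1 read. The lowest, median and highest cells had 0, 0 and 356 CPM at day 14, 0, 54.5 and 659 CPM at day 1 and 0, 44.1 and 1588 CPM in uninjected cells. They had 0, 0 and 2699.9 CPM in Id2 and 0, 66.1 and 4647 CPM in GFP cells. Reads were found in 13 of 29 day 14, 34 of 58 day 1, 17 of 31 uninjected, 33 of 71 Id2 and 35 of 59 GFP cells, so the shares differed less than the levels. The groups overlapped from 0 upwards, and the highest cell was lowest at day 14 and highest in GFP cells. The sign of the Dnajb1 ratio was kept in each of the 8 to 11 alternatives run per comparison. The log2 ratio ranged from -3.84 to -1.62 for day 14 over uninjected cells and from -2.65 to -0.43 for day 1 over uninjected cells. The smallest day 1 value came from the 9 uninjected cells with titles outside the J series, which ended the call and stood at 143.8 CPM against 313 CPM in J-titled cells. For GFP over uninjected cells the log2 ratio was 1.37, and 0.89, short of 2-fold, without the cells rich in microglia markers.

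In the virus experiment, 5 of 56 measured members were called higher in Id2 than in GFP cells, against 6.18% of all measured genes, and 4 were called lower, against 8.21%. Of these 56 members, 3 were measured only through the Id2 cells (Hspa1a, Hspa1b and Dnajc27) and 4 only through the GFP cells, among them the called Dnajc4. The median log2 ratio was -0.11 over members and -0.10 over all genes. Both viruses occur in IDS titles numbered up to 95, with 43 cells each, and in those numbered above 95, with 28 cells for Id2 and 16 for GFP, so values are also given inside these 2 title sets. Microglia markers summed to 625 CPM in Id2 and 181.9 CPM in GFP cells.

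Both heat-inducible Hsp70 genes were called higher in Id2 cells, and both were measured only through the Id2 cells, since under 20% of GFP cells held a read. Hspa1a stood at 69.4 CPM in Id2 cells and 18.4 CPM in GFP cells, 3.77-fold higher, with reads in 23 of 71 and 11 of 59 cells. Hspa1b stood at 18.999 and 7.54 CPM, with reads in 16 of 71 and 8 of 59 cells. The median cell of both groups was at 0 for both genes, and the highest cells had 957 CPM of Hspa1a in Id2 and 446 CPM in GFP cells. A single Id2 cell held 53.5% of the Hspa1a reads of its group. Within title sets, Hspa1a stood at 94.9 CPM in Id2 and 23.1 CPM in GFP cells up to 95, and at 15.9 and 0.219 CPM above 95.

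Ddit3 (CHOP) was the stress transcription factor called in this experiment. It stood at 152.5 CPM in Id2 cells and 52.8 CPM in GFP cells, 2.89-fold higher. The lowest, median and highest cells had 0, 9.03 and 2039 CPM in Id2 and 0, 1.67 and 700.3 CPM in GFP cells, with reads in 45 of 71 and 33 of 59 cells. The upper quartile was 165.1 CPM in Id2 and 48.4 CPM in GFP cells, so the difference lay in the cells above the median. Within title sets, it stood at 195.8 CPM in Id2 and 55.7 CPM in GFP cells up to 95, and at 61.9 and 41.6 CPM above 95, where the log2 ratio of 0.56 was short of 2-fold. Other genes of the response were not called in Id2 cells: Xbp1 stood at 313 and 225.8 CPM, Atf4 at 165.1 and 155.5 CPM and Hspa5 at 882 and 1361 CPM. The reference annotation lists Ddit3 under 2 gene IDs, and the table does not say which was counted.

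Lower in Id2 cells were Dnajb1, Dnajb9, Dnajc4 and Dnajc18. Dnajb9 stood at 67.1 CPM in Id2 and 153.9 CPM in GFP cells, and its log2 ratio turned to 0.29 within IDS titles above 95. Dnajc4 stood at 5.40 and 32.01 CPM, with reads in 4 of 71 and 12 of 59 cells, and Dnajc18 at 21.7 and 72.5 CPM. Dnajb12, a J-protein of the ER membrane that faces the cytosol, was called higher, at 67.9 and 15.2 CPM, as was Dnajc27 (29.6 and 11.4 CPM). Within IDS titles above 95 the log2 ratio of Dnajc27 turned to -1.57 and that of Dnajc18 to 0.47. Of the 13 measured ER chaperones and foldases, 9 had a log2 ratio below 0 in Id2 cells, against 4348 of 7846 measured genes. Of these, 1 (7.69%), Dnajb9, was called lower, close to the 8.21% over all genes. Hsp90b1 was not called, at 311 and 607 CPM. Hspa8, Hsp90aa1 and Hsp90ab1 had log2 ratios of -0.03, 0.10 and 0.05.

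GFP cells were set against uninjected cells to show how members differ without kainate or Id2. Of 58 measured members 9 were called higher in GFP cells, against 13.2% of all measured genes, and 3 were called lower, against 7.94%. Measured only through the GFP cells were 4 members, all called (Pdia4, Hspb11, Hspa13 and Dnajc4), and only through the uninjected cells 5, among them the called Dnajc27. Hspa2 stood at 291 CPM in GFP cells and 50.1 CPM in uninjected cells, 5.81-fold higher. Its cells had 0, 7.76 and 3046 CPM in GFP and 0, 0 and 487 CPM in uninjected cells (lowest, median and highest), and Id2 cells stood higher still, at 509.98 CPM with a median of 288 CPM. The 5-group order of Hspa2 was Id2, GFP, day 1 (143.4 CPM), day 14 (94.1 CPM) and uninjected, so its summed level was highest in both groups with a virus. Within title sets, GFP cells stood at 341 CPM up to 95 and at 96.5 CPM above 95, which is below the day 1 level, and Id2 cells at 469 and 596 CPM.

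Also higher in GFP than in uninjected cells were Dnajb1, Hspb11 (54.1 CPM in GFP and 6.16 CPM in uninjected cells), Pdia4 (130.1 and 17.4 CPM), Dnajc7 (208.9 and 39.6 CPM) and Dnajb9 (153.9 and 43.7 CPM). Hspa13, an ER-associated Hsp70 (75.6 and 34.3 CPM), Dnajc8 (271 and 127.7 CPM) and Dnajc4 completed the list. Lower were Dnajc5 (136.4 and 301 CPM), Dnajc27 and Dnajb12. Against the 9 uninjected cells with other titles the log2 ratio of Dnajc5 turned to 0.56, and without the cells rich in microglia markers those of Hspa13 and Dnajb12 turned to -0.29 and 3.81. Dnajc4 and Dnajc27 were short of 2-fold without those cells (0.02 and -0.82), and Dnajc8 and Dnajb9 in at least 1 other alternative. Pdia4, Dnajc7 and Hspb11 were thus called higher than in uninjected cells both at day 1 and in GFP cells, comparisons that share the uninjected cells. In each of these 3 genes the uninjected cells were the group with the lowest level of the 5.

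**Figure D4:**
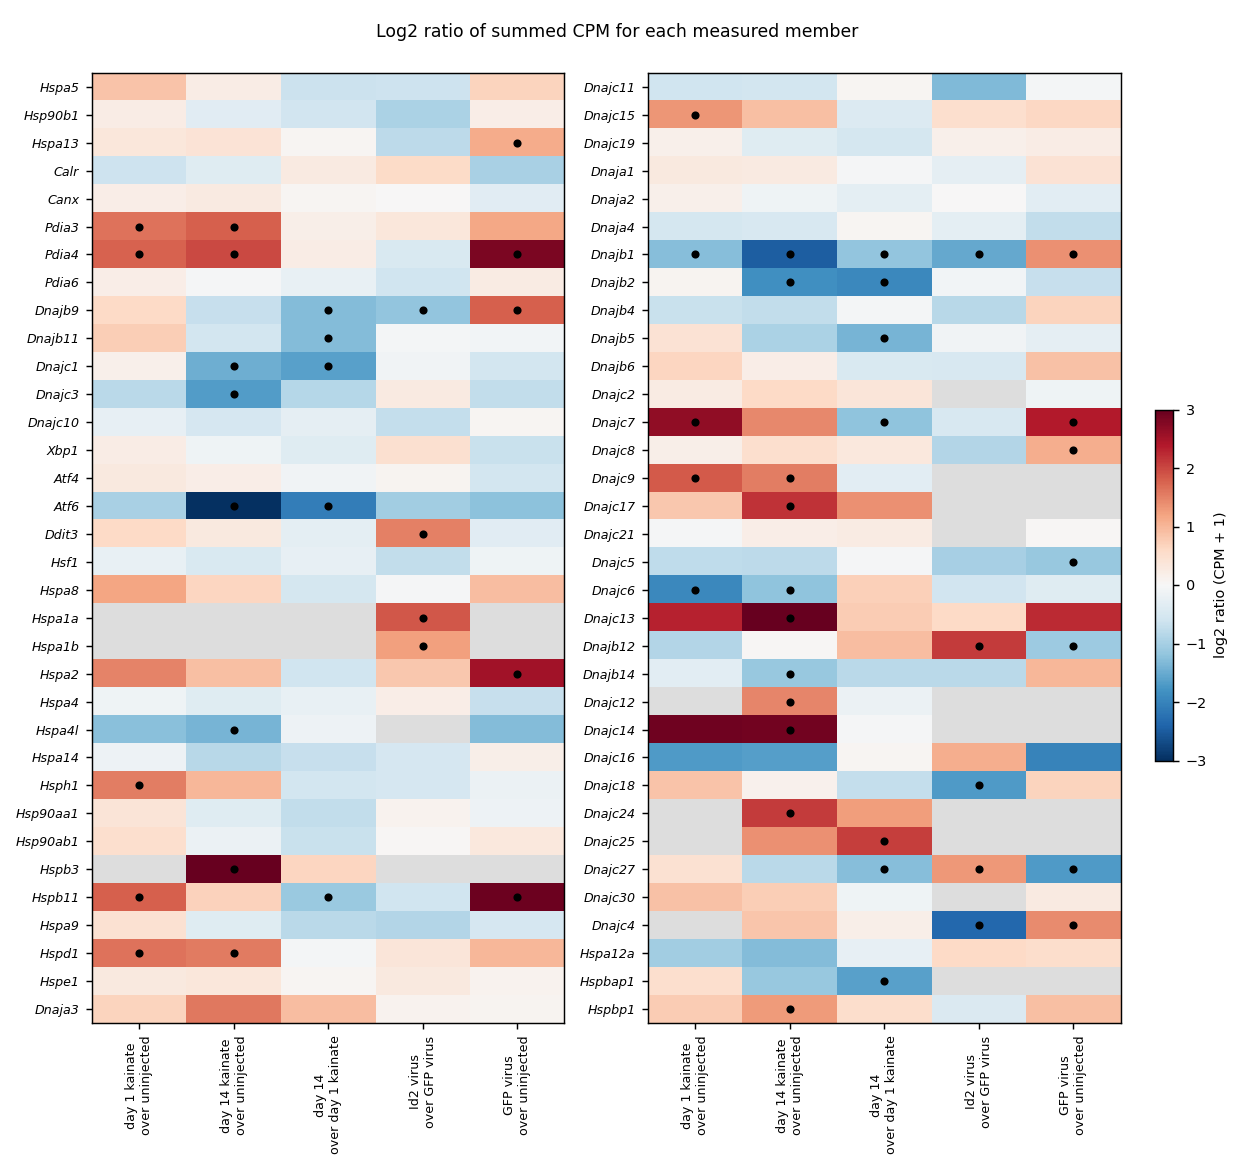
Log2 ratio of summed CPM (after adding 1 CPM) for each member measured in at least 1 comparison; rows are members in the order of their roles, columns are the 5 comparisons, red is higher and blue lower in the first-named group, grey is not measured, and a dot marks a call on all 3 scales. Dnajb1 has a dot in every column, red for GFP over uninjected cells and blue in the others.

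Across the 5 comparisons, 39 members were called at least once, 15 at least in 2 and 6 at least in 3. The matching shares over all measured genes were not computed, and comparisons that share a group are not independent. A further 29 were measured and never called, among them Hspa5, Hsp90b1, Calr, Canx, Pdia6, Xbp1, Atf4, Hsf1, Hspa8, Hsp90aa1, Hsp90ab1, Dnaja1 and Hspe1. Dnaja1, the main cytosolic J-protein of class A, stood at 471 CPM at day 14, 483 at day 1, 392 in uninjected, 444 in Id2 and 531 in GFP cells. The 18 members measured in no comparison were Hspb1, Hspb2, Hspb6, Hspb7, Hspb8, Hspb9, Hspa1l, Hspa12b, Pdia2, Pdia5, Dnajb3, Dnajb7, Dnajb8, Dnajb13, Dnajc5b, Dnajc5g, Dnajc22 and Dnajc28. Hspb1 (Hsp27), the classic inducible small heat shock protein, had reads in 2 of 29 day 14, 3 of 58 day 1, 2 of 31 uninjected, 4 of 71 Id2 and 1 of 59 GFP cells. The share of members called was near that of all measured genes in most comparisons, and the widest gap was for higher calls at day 14 over day 1.

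**Figure D5:**
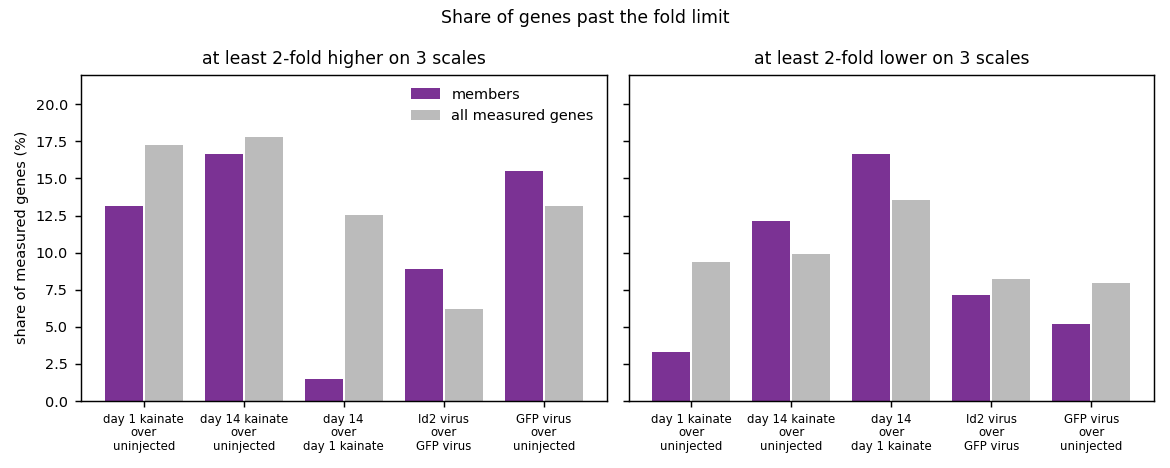
Share of measured members (purple) and of all measured genes (grey) past 2-fold on 3 scales, higher on the left and lower on the right, for each comparison. Members lie below the background for higher calls at day 14 over day 1 (1.52% against 12.5%) and close to it in most others.

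Genes of the same pathways outside the members were read from 3 lists. Of 26 measured heat shock factors and cochaperones, 7 (26.9%) were called higher at day 1 than in uninjected cells, against 17.3% of all measured genes, and none of the 26 lower, against 9.35%. A log2 ratio above 0 was found for 24, against 5129 of 9079 genes, with a median of 0.76 against 0.17 over all genes. The called 7 included Grpel2, an exchange factor of mitochondrial Hsp70 (71.5 CPM at day 1 and 1.79 CPM in uninjected cells), Bag3 (82.2 and 9.79 CPM) and Bag2 (81.3 and 15.5 CPM), which bind Hsp70, and Fkbp5 (29.3 and 4.79 CPM), which binds Hsp90. These 4 are among the 5 cochaperones measured only through the day 1 cells. Of the 14 genes of the TRiC chaperonin and prefoldin, which fold actin and tubulin, 3 (21.4%) were called higher at day 1, close to the 17.3% over all genes, and 13 lay above 0. Cct7 stood at 687 CPM at day 1 and 278 CPM in uninjected cells, and Pfdn1 at 106.9 and 27.8 CPM. At day 14, 4 of the 26 cochaperones (15.4%) were called higher, against 17.8% of all genes, and 1 lower, with Grpel2 at 44.1, Bag3 at 44.2 and Bag2 at 65.04 CPM. For GFP over uninjected cells the cochaperone list had a median log2 ratio of 0.38, against 0.13 over all genes. Of its 25 genes measured there, 3 (12%) were called higher, against 13.2% of all genes, and 1 lower. The 3 pathway lists were not recomputed under the alternatives run for members.

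Of 37 measured genes of the unfolded protein response and ER quality control, 4 (10.8%) were called higher and 2 (5.41%) lower at day 1, both below the 17.3% and 9.35% over all genes. At day 14, 1 (2.70%) was called higher and 4 (10.8%) lower, against 17.8% and 9.91%. At each day 5 of the 37 were measured only through the kainate cells. Asns, a target of Atf4, stood at 409 CPM at day 1 and 92.3 CPM in uninjected cells, Ssr1 at 242.2 and 53.8 CPM, Sdf2l1 at 75.6 and 24.5 CPM and Hyou1, an ER Hsp110, at 28.9 and 9.63 CPM. Ppp1r15b, which restores translation by dephosphorylating eIF2alpha, was lower, at 66.1 and 245.2 CPM. Eif2ak3 (PERK), the ER stress kinase, stood at 22.9 CPM at day 14 and 121.98 CPM in uninjected cells, and Wfs1 at 8.51 and 66.4 CPM. Wfs1 also belongs to a list of 10 CA pyramidal cell markers, which summed to 587 CPM at day 14 and 811 CPM in uninjected cells. Whether this bears on the Wfs1 difference was not tested. Day 14 cells had 7 of 38 genes of this list called lower than day 1 cells (18.4%, against 13.5% of all genes) and 1 higher. Ssr1 stood at 89.1 and 242.2 CPM and Ern1 (IRE1) at 4.49 and 18.8 CPM. Ern1 was measured here only through the day 1 cells. In Id2 cells 4 of 31 (12.9%, against 8.21%) were called lower than in GFP cells and none of the 31 higher. Of the 31, 5 were measured only through the GFP cells. These include the called Mbtps2, the protease that completes Atf6 cleavage (2.97 CPM in Id2 and 97.7 CPM in GFP cells). Herpud1 was also called lower (113.4 and 233.3 CPM). For GFP over uninjected cells, 3 of 34 (8.82%) were called higher, against 13.2% of all genes, and 6 (17.6%) lower, against 7.94%. Of these 34, 2 were measured only through the GFP cells and 4 only through the uninjected cells.

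Within a group, members were also compared from cell to cell. Spearman's rho between Hspa5 and Hsp90b1, the ER pair with the best-known shared control, was 0.37 over 29 day 14 cells, 0.54 over 58 day 1 cells, 0.15 over 31 uninjected cells, 0.18 over 71 Id2 cells and 0.06 over 59 GFP cells. Over the pairs of ER chaperones found in enough cells, the median rho was 0.32 at day 14, 0.30 at day 1, 0.17 in uninjected, 0.10 in Id2 and 0.08 in GFP cells. Between ER and cytosolic chaperones the median rho was 0.23 at day 14, 0.00305 at day 1 and 0.04 in uninjected cells. This median was 0.10 in Id2 and 0.07 in GFP cells. Among the cytosolic chaperones the median was 0.29 at day 14, 0.11 at day 1, 0.14 in uninjected, 0.13 in Id2 and 0.01 in GFP cells. Cells of a group share library preparation and depth, and the values describe these cells with no test. At day 1, rho with the total reads of a cell was 0.01 for Hspa5 and -0.10 for Hsp90b1.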

How the data were processed

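Single-cell Patch-seq data of mouse dentate granule cells came as 2 deposited tables of 22800 genes. The first holds whole-number counts per gene deposited by the authors for 291 cells. The other holds scaled signal values deposited by the authors for 252 cells that equal the counts times 1 factor per cell (0.187 to 287). The file names of the pair are crossed against this content, and the values were followed. Per the submitters' processing notes, Trimmomatic, STAR and featureCounts were used with build GRCm38. No source used here gives their versions, the annotation or the strand setting. Cells marked Passed were used, 248 in all, after leaving out 2 contralateral and 2 low_DG cells; 39 were marked Failed, and 13 of the 304 labelled samples had no column and were not analysed here. Total counts per cell ranged from 32487 to 27708910.

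Counts were summed over cells and scaled to CPM (Python 3.11.15, numpy 2.4.6, pandas 2.3.3, scipy 1.17.1). Exact Poisson and Clopper-Pearson intervals (95%) cover counting error only, since the reads carry no molecular identifiers. Members with an exon shared with another gene in GENCODE M21 numbered 32 of 86, and 85 matched 1 gene there. Measured and called members are defined in the text; a call needs 2-fold on 3 scales after 1 CPM was added. The named genes are the members called in a comparison, the abundant or central chaperones whether called or not, and up to 4 genes per pathway list. Members and lists were chosen with earlier results of these data known. No 2 cells had identical values. Alternatives were another pseudocount, no filter on low values, median-of-ratios factors, the authors' scaled values, Failed cells, cells rich in microglia markers, the deepest cells, title sets and GFP cells as the reference. The scripts were tested on simulated data.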

Additional observations from a re-analysis of the deposited data

Results flagged for a closer look

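Dnajc27, a J-protein with a Rab-type GTPase domain, gave opposite ratios in the 2 title sets of the virus experiment. Its log2 ratio of Id2 over GFP cells was 4.16 among IDS titles up to 95, with 35.9 CPM in Id2 and 1.07 CPM in GFP cells. Among IDS titles above 95 it was -1.57, with 16.6 CPM in Id2 and 51.2 CPM in GFP cells. The difference between the sets was not tested, and reads were found in 16 of 71 Id2 and 8 of 59 GFP cells in all.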

How the results depend on the processing

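Of 100 counts of called members recomputed over the alternatives, 68 were within 1.5 times the count reported. Of 62 ratios of called members, 45 kept their sign under each alternative run. For day 1 over uninjected cells, the higher calls numbered 13 with no filter on low values, 15 without cells rich in microglia markers, 16 against uninjected cells with other titles and 4 with GFP cells as the reference, in place of 8. The lower calls, 2 as reported, numbered 1 with a pseudocount of 5 CPM and with Failed cells included, and 4 without the deepest 10% of cells and against J-titled cells. They numbered 5 with the authors' scaled values and on summed counts alone, 7 without the microglia-rich cells and 8 against GFP cells. For day 14 over uninjected cells, 5 were called higher against GFP cells in place of 11, and 13 (scaled values), 14 (without microglia-rich cells) and 3 (other titles) lower in place of 8. For day 14 over day 1, higher calls numbered 3 with no filter, scaled values or summed counts alone and 0 without microglia-rich cells, in place of 1. For Id2 over GFP, higher calls numbered 11 with no filter and 10 among IDS titles above 95, in place of 5. Lower calls numbered 9 with no filter, 8 with scaled values and 7 among IDS titles up to 95, in place of 4. For GFP over uninjected cells, higher calls numbered 16 with no filter and 20 against other titles, in place of 9. Lower calls numbered 1 with the pseudocount of 5 CPM, 5 with median-of-ratios factors, 6 with scaled values and on summed counts alone and 0 without the deepest cells, in place of 3. The cause of these changes was not tested.

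The ratios that turned had these log2 values. Day 1 over uninjected with GFP cells as the reference gave -1.15 for Hspb11 and -1.07 for Pdia4. Day 14 over uninjected gave -3.22 for Dnajc13, -1.60 for Pdia4 and 0.045 for Dnajb2 without microglia-rich cells. It gave 2.18 for Dnajb2, 0.36 for Dnajc6, 3.25 for Dnajb14 and 3.14 for Hspa4l against other titles, and -0.73 for Dnajc24, -0.84 for Pdia4 and -1.54 for Dnajc12 against GFP cells. Day 14 over day 1 gave -2.69 for Dnajc25 without microglia-rich cells. Id2 over GFP among IDS titles above 95 gave -1.57 for Dnajc27, 0.47 for Dnajc18 and 0.29 for Dnajb9. GFP over uninjected gave -0.29 for Hspa13 and 3.81 for Dnajb12 without microglia-rich cells, 0.55 for Dnajb12 without the deepest cells and 0.56 for Dnajc5 against other titles.

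Median-of-ratios scaling shifted the median log2 ratio of all genes by 0.13 for day 1 and 0.12 for day 14 over uninjected cells and by 0.16 for GFP over uninjected cells. No paired analysis was possible because the labels give no replicate numbers or animals and no test was run. With 1 sample per group, no replicate could be left out. Depth limits low members most in uninjected cells, where the shallowest cell had 32487 reads.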

Other observations

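The labels also give 2 passed cells from the side opposite to the kainate injection at day 1, a group too small for a comparison. Their levels were 1422 and 1198 CPM for Hsph1, 2242 and 1901 CPM for Hspa8 and 641 and 2788 CPM for Hspa5. Pdia3 stood at 423 and 805 CPM, Dnajc7 at 171.8 and 1088 CPM and Dnajb1 at 0 and 180.4 CPM. For Hsph1 the median was 1176 CPM in day 1 cells of the injected side and 169.6 CPM in uninjected cells.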
